A study of Danio rerio with 16 samples.

Results

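Whole regenerating tail fin was compared with dissociated and sorted cells of the regenerate that lacked sp7 reporter signal, both 4 days post-amputation (dpa). The comparison used 4 of the 16 libraries of the study, 2 of whole fin and 2 of sp7- cells. All fish were zebrafish of the strain Tg(sp7:EGFP), in which EGFP driven by the sp7 promoter marks differentiating and mature osteoblasts. In every library, CpG methylation was read by whole genome bisulfite sequencing (WGBS). The whole fin libraries came from regenerate cut at the amputation plane, a mixture of blastema and wound epidermis that was neither dissociated nor sorted. For the sorted libraries, regenerates of pooled fish were digested with TrypLE to single cells, filtered, and split by flow cytometry into EGFP-negative (sp7-) and EGFP-positive (sp7+) cells. The 2 libraries of sp7+ cells at 4 dpa, together with whole fin and sorted libraries of uninjured fin (0 dpa) and whole fin libraries of days 1 and 2, served as further levels. For the sorted libraries of 0 dpa, digestion with TrypLE was followed by digestion with Liberase DL. Digestion and time point can therefore not be told apart in the sorted libraries. The sp7- gate holds every cell without reporter signal, so it is a mixture and not a cell type. Dissociation, sorting and the removal of sp7+ cells came together in this design, and their effects on a difference between whole fin and sp7- cells cannot be told apart. Whether whole fin and sorted libraries shared fish is not given in the sources used here.

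In vertebrates, DNA methylation is set mostly on the cytosine of CpG pairs and is copied at cell division, so that each cell type carries a pattern of high and low sites. Bisulfite turns unmethylated cytosine into a base read as T while methylated cytosine is still read as C. The level of a site in a tissue is therefore an average over its cell types. The osteoblasts of the fin ray, marked by the transcription factor Sp7, are among the cells that form the blastema, the mass of cells from which an amputated fin regrows.

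The genome was cut into tiles of 500 bp, and the level of a tile was the percentage of its calls that were methylated, per library. A call is a read over a CpG. Of 2631724 tiles with a CpG, 1721535 (65.4%) had at least 10 calls in each of the 4 libraries, and they held 18911457 CpGs. The median tile had 9 CpGs, and the median number of calls per tile was 49 to 116 per library. Total calls were 138782937 and 129295312 in whole fin, 329462166 and 203762921 in sp7- cells and 471925247 and 246624114 in sp7+ cells at 4 dpa. Depth bears on the counting error of a tile and on which tiles reach 10 calls in each library. Whether it also bears on the level was not tested.

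Whole fin and sp7- cells had nearly the same genome-wide level. It was 76.1% and 76.7% in the libraries of whole fin, 78.5% and 76.1% in those of sp7- cells, and 77.3% and 76.8% in those of sp7+ cells. The groups overlapped, and replicate 1 of sp7- cells stood above the other 5 libraries. The mean of whole fin was 76.4% ± 0.442 and that of sp7- cells 77.3% ± 1.70 (SD, n = 2 each), a difference of -0.897 points (percentage points, whole fin minus sp7- cells) with a two-sided exact permutation p of 0.667. The smallest p that 2 libraries against 2 allow is 0.33. With replicate 1 of sp7- cells left out the difference was 0.305 points, and with replicate 2 left out it was -2.10 points, so its sign rested on replicate 1 of sp7- cells.

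Each sp7- library on its own was within 10 points of whole fin in most tiles (82.6% for replicate 1 and 80.2% for replicate 2), but the direction differed. The median difference over the 1721535 tiles was -0.37 points for both sp7- libraries pooled, -0.84 points against replicate 1 and 0.09 points against replicate 2. Whole fin was within 5 points of pooled sp7- cells in 61.9% of tiles and within 10 points in 86.2%. It differed by more than 25 points in 10764 tiles (0.625%), 6174 of them lower and 4590 higher in whole fin. By the same limit, 11887 tiles were lower and 9126 higher against replicate 1 alone, and 11050 lower and 15855 higher against replicate 2 alone. On every one of the 25 chromosomes the mean of whole fin lay below replicate 1 of sp7- cells, with differences of -1.46 to -2.60 points. Against replicate 2 of sp7- cells it lay below on 3 chromosomes, with differences from -0.283 to 1.11 points.

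The replicate 1 library of sp7- cells stood apart most in tiles rich in CpGs. In the 9064 tiles with 41 or more CpGs its level was 76.8%, against 70.8% in replicate 2 of sp7- cells, 68.6% and 70.9% in whole fin, and 74.0% and 71.1% in sp7+ cells. Its coverage there was 1.19 times its own mean per CpG, while that of the other 5 libraries of 4 dpa was 0.799 to 0.989 times theirs. In the 685091 tiles with 6 to 10 CpGs its level was 77.1%, against 75.4% in replicate 2 and 75.7% and 76.0% in whole fin, with a relative coverage of 0.835. Level and coverage of CpG-rich tiles thus moved together across these libraries, and the part of coverage in the difference of level was not tested.

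**Figure D1:**
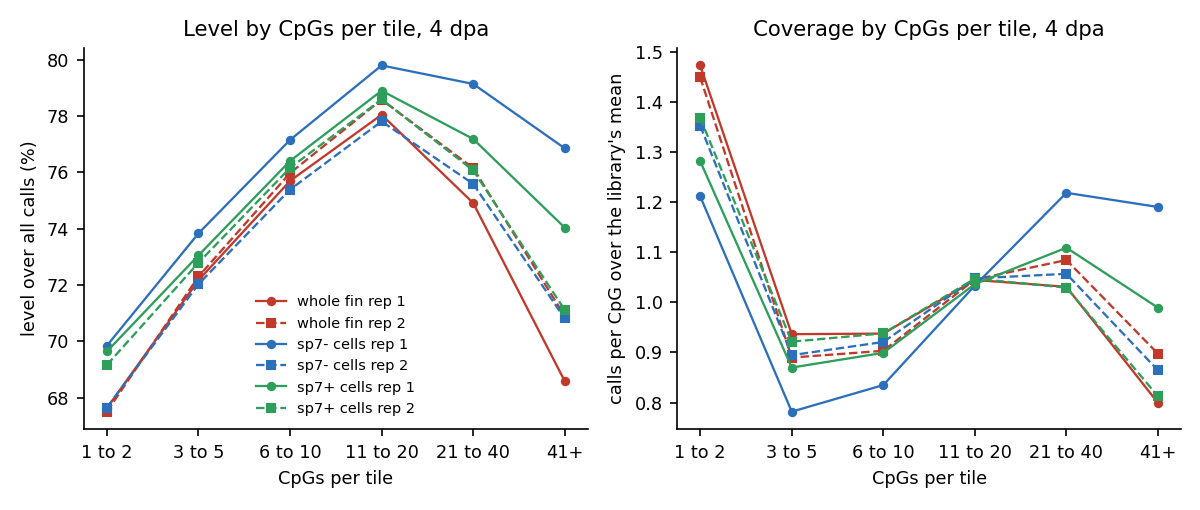
Methylation level over all calls (left, %) and calls per CpG relative to the mean of each library (right) by the number of CpGs per 500 bp tile, for the 6 libraries of 4 dpa (whole fin red, sp7- cells blue, sp7+ cells green; replicate 1 solid, replicate 2 dashed). Replicate 1 of sp7- cells has the highest level in each class and, in tiles with 21 or more CpGs, the highest relative coverage.

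Pairs of single libraries, thinned to the same total number of calls, set the group difference against that between replicates. Among 1600414 tiles, the whole fin replicates differed by more than 25 points in 2.80% and the sp7- replicates in 2.99%. The 4 pairs of a whole fin with an sp7- library differed in 3.05% to 3.26%. The SD of the tile differences was 10.1 points in both replicate pairs and 10.3 to 10.4 points in the 4 pairs across groups. Thinning did not equalise the spread of calls over classes of CpG number. The pairs across groups exceeded the replicate pairs by 0.0568 to 0.457 percentage points of tiles.

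**Figure D2:**
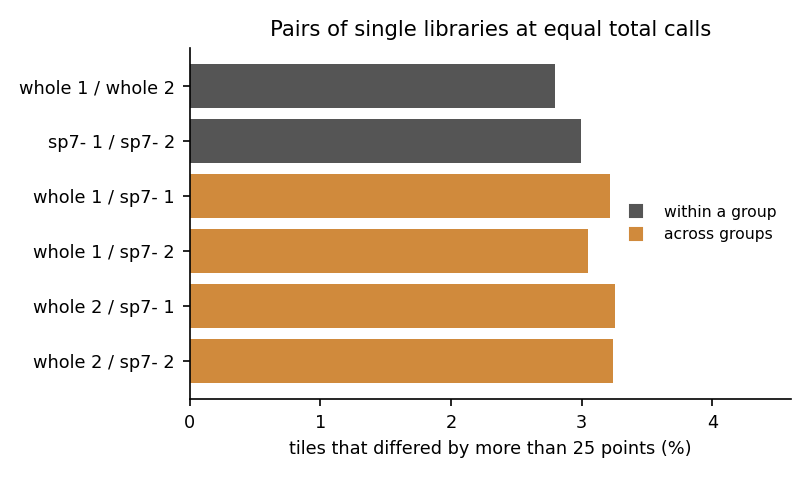
Share of 500 bp tiles (%) that differed by more than 25 points between 2 single libraries of 4 dpa after thinning to an equal total of calls, for the 2 pairs within a group (grey) and the 4 pairs across groups (orange). The pairs across groups lie at 3.05% to 3.26%, above 2.80% and 2.99% within groups.

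A small number of tiles passed the threshold, in a fit where the spread of a tile rests mostly on that of all tiles. In a weighted limma fit of the 4 libraries, 22 of 1721535 tiles (0.00128%) were called, which means a Benjamini-Hochberg adjusted p below 0.05 and a difference of pooled levels above 10 points. Whole fin was lower in 12 of them (0.000697% of tiles) and higher in 10 (0.000581%). At an unadjusted p below 0.05 there were 112067 tiles, where 86077 would be reached by p-values without any difference. edgeR's quasi-likelihood test on the methylated and unmethylated counts called 135 tiles, 79 lower and 56 higher, and these included all 22. The calls depended on single libraries. Without replicate 1 or 2 of whole fin, limma called 13 and 7 tiles, which included 4 and 6 of the 22. Without replicate 1 of sp7- cells limma called 0 tiles (smallest adjusted p 0.867, with 97278 tiles at an unadjusted p below 0.05), and without replicate 2 of sp7- cells also 0 (smallest adjusted p 0.851, with 97041 such tiles). In these 3-library fits the lone library of a group is assumed to vary like the other group.

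The called tiles were rich in CpGs and of middle level. Their median was 21.5 CpGs where whole fin was lower and 18.5 where it was higher, against 9 over all tiles tested, and 21 of the 22 held 11 to 40 CpGs. Calls add up over the CpGs of a tile, so tiles rich in CpGs tend to have more weight in the fit. The number of CpGs in called tiles is thus in part fixed by the choice. By the mean level of whole fin and sp7- cells at 0 dpa, libraries that the call did not use, 4 called tiles were at 10 to 25%, 5 at 25 to 50% and 13 at 50 to 75%. No called tile was below 10% or above 75%, classes that held 72.9% of all tiles tested. The mean of groups that lie far apart falls in the middle, and most called tiles differed at 0 dpa too. Their middle level is thus in part fixed by the choice. Coverage was high in many of them: 9 of the 22 had more than 3 times the median summed coverage, against 11.2% of all tiles, and its part in the calls was not tested. The fit without such tiles called 13, all among the 22. The called tiles lay on 12 chromosomes.

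**Figure D3:**
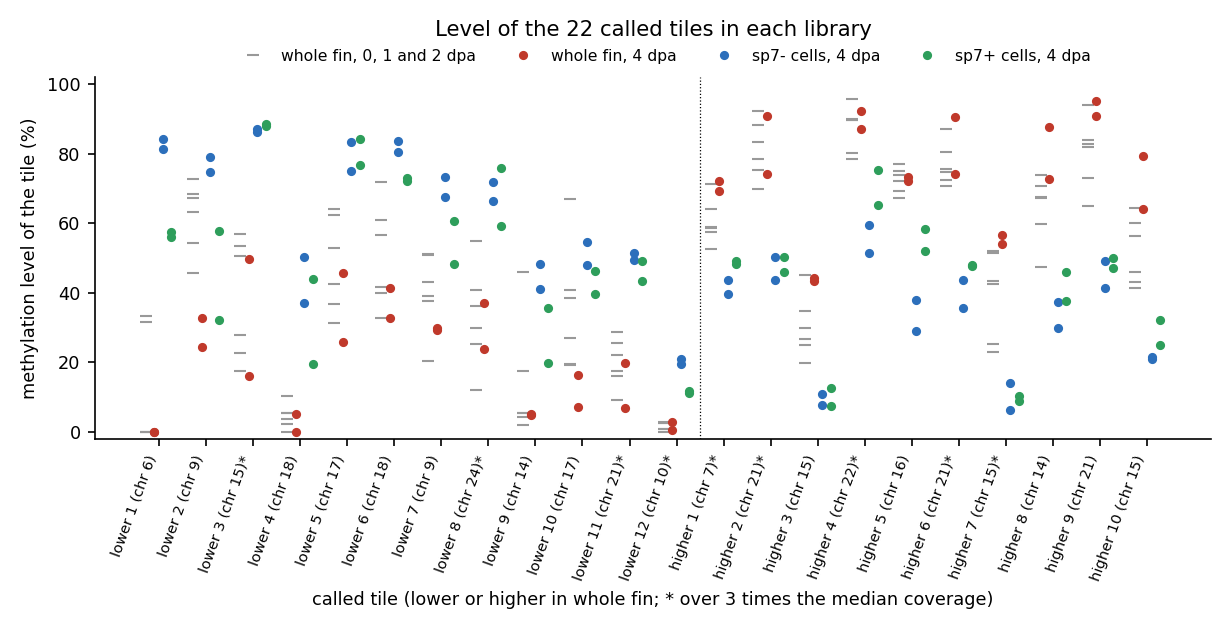
Methylation level (%) of the 22 called tiles in each library, with whole fin at 0, 1 and 2 dpa as grey bars, and whole fin (red), sp7- cells (blue) and sp7+ cells (green) of 4 dpa as points, 1 per library; tiles are ordered by the difference of pooled levels. In 12 tiles (left of the dotted line) both red points lie below both blue points, and in 10 tiles above them. These 4 libraries made the call, so their separation is in part fixed by the choice. Over all 1721535 tiles tested they were separate, in either direction, in 609747. The green points lie on the side of the blue ones except at the tile lower 2, where 1 of them (32.1%) is just below a red point (32.8%).

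Positions are those of the deposited tables, on GRCz10, and the number of the first base (0 or 1) is unsettled. No annotation of that build was used, so genes, exons and introns are not assigned and no sequence is printed. Among tiles with ordinary coverage, the 5 with the largest difference in each direction are described here, with the levels of replicate 1 and replicate 2 in that order. Counts of CpGs that were lower or higher in a tile come from the calls that chose it. Neighbouring CpGs also share reads, so these counts describe the tile and are no separate evidence.

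The tile chr9:9252500-9252999 (17 CpGs) had the largest difference among the 5 described tiles that were lower in whole fin. Its level was 24.5% and 32.8% in whole fin, 74.8% and 79.0% in sp7- cells and 57.8% and 32.1% in sp7+ cells. The difference of whole fin from sp7- cells was -48.0 points (limma adjusted p = 0.0215), on 49 to 124 calls per library, and 10 of the 11 CpGs with 5 reads in each group were lower. In uninjured fin the difference was only -8.96 points. Whole fin was at 67.4% and 63.3% on day 1 and at 45.8% and 68.4% on day 2.

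At chr18:6967000-6967499 (39 CpGs) whole fin was almost unmethylated, at 0% and 5.0%, while sp7- cells were at 50.2% and 37.0%. The difference was -45.5 points (limma adjusted p = 0.00589), and all 15 CpGs with 5 reads in each group were lower in whole fin. Were the 110 calls of the library at 0% independent, they would allow a level up to 2.73%. Calls on the same read are not independent, so the true limit is higher. The sorted libraries varied widely here: sp7+ cells were at 44.1% and 19.5% at 4 dpa and at 75.3% and 18.3% at 0 dpa, and sp7- cells at 0 dpa at 37.4% and 3.82%. Replicate 1 was above replicate 2 in every sorted group and had more calls in each, with 267 against 92 in sp7- cells at 4 dpa. The part of coverage in this was not tested. The 8 whole fin libraries stayed between 0% and 10.4%, with only 8 calls in replicate 2 of 2 dpa.

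The tile chr17:36900500-36900999 (12 CpGs) separated all whole fin from all sorted libraries. Its level at 4 dpa was 25.9% and 45.6% in whole fin, 75% and 83.5% in sp7- cells and 76.7% and 84.2% in sp7+ cells. The difference of -44.8 points (limma adjusted p = 0.0409) had a counterpart of -38.3 points at 0 dpa. Over all time points the 8 whole fin libraries were at 25.9% to 64.1% and the 8 sorted libraries at 75% to 88.6%.

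At chr18:21205500-21205999 (27 CpGs) whole fin was at 41.2% and 32.8%, sp7- cells were at 80.6% and 83.6%, and sp7+ cells were at 72.2% and 73.1%. The difference was -43.9 points (limma adjusted p = 0.0314), and -35.4 points at 0 dpa. All 11 CpGs with 5 reads in each group were lower in whole fin.

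The tile chr9:6399000-6399499 (15 CpGs) was at 29.9% and 29.3% in whole fin, 67.5% and 73.2% in sp7- cells and 48.4% and 60.5% in sp7+ cells. The replicates of whole fin differed by less than 1 point here, and the difference from sp7- cells was -40.1 points (limma adjusted p = 0.0203). The difference at 0 dpa was -16.8 points.

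Of the tiles higher in whole fin, chr15:47716000-47716499 (17 CpGs) differed most. Whole fin was at 64.2% and 79.4%, sp7- cells were at 21% and 21.6% and sp7+ cells were at 32.1% and 25%. The difference was 51.1 points (limma adjusted p = 0.0195), all 14 CpGs with 5 reads in each group were higher, and the difference at 0 dpa was 32.7 points.

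At chr21:40606500-40606999 (6 CpGs) whole fin was nearly fully methylated, at 95.1% and 90.9%, while sp7- cells were at 41.3% and 49.2% and sp7+ cells at 47.2% and 50.0%. The difference was 48.2 points (limma adjusted p = 0.0195), and 31.5 points at 0 dpa. All 6 CpGs were higher in whole fin.

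The tile chr14:13003500-13003999 (16 CpGs) was at 87.6% and 72.9% in whole fin, 29.9% and 37.4% in sp7- cells and 37.7% and 45.9% in sp7+ cells, a difference of 45.5 points from sp7- cells (limma adjusted p = 0.0195). The 8 whole fin libraries (47.4% to 87.6%) lay above the 8 sorted ones (29.9% to 46.2%). The nearest values of the 2 sets were thus close to each other.

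At chr16:10693000-10693499 (16 CpGs) whole fin was at 72.2% and 73.2%, sp7- cells at 38.0% and 28.9% and sp7+ cells at 58.2% and 52.0%. The difference was 39.1 points (limma adjusted p = 0.0207). At 0 dpa the sp7+ cells, at 74.3% and 81.7%, overlapped with whole fin, at 77.0% and 67.4%, and sp7- cells were at 50.1% and 51.3%.

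The tile chr15:1526500-1526999 (12 CpGs) and its called neighbour chr15:1527000-1527499 (20 CpGs) were the lowest in the sorted cells. The first was at 44.3% and 43.3% in whole fin, 11% and 7.60% in sp7- cells and 12.5% and 7.55% in sp7+ cells, a difference of 34.5 points (limma adjusted p = 0.0208). The second was at 54.1% and 56.6% in whole fin and at 6.31% to 14.0% in the 4 sorted libraries of 4 dpa, a difference of 45.4 points (limma adjusted p = 0.00213). In both tiles the 8 whole fin libraries lay above the 8 sorted libraries.

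Other called tiles fell outside that choice because of low or high coverage or a smaller difference, and 3 of them are given here after their values were seen. The largest difference of all, -82.7 points at chr6:16719000-16719499 (31 CpGs, limma adjusted p = 0.00213), rested on 13 and 17 calls in whole fin, both at 0%, with sp7- cells at 81.4% and 84.4%. At chr15:46147000-46147499 whole fin was at 49.7% and 16.2% and sp7- cells at 87.1% and 86.2%, but whole fin held only 0.187 times as many calls as sp7- cells, against a median of 0.532 over all tiles. The tile chr10:20553000-20553499 (27 CpGs) was near 0 in all 8 whole fin libraries (0% to 2.88%) and at 11.1% to 33.5% in the 8 sorted ones, with 4.90 times the median coverage. It lay 1511 bp from a region that the study listed for a change of chromatin accessibility during regeneration. The study gave each such region the gene with the closest transcription start, here ddhd2, which encodes a phospholipase. No other called tile lay within 5000 bp of a region in the part of that list used here.

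In the called tiles the pooled sp7+ level lay on the same side of whole fin as the sp7- level. The pooled level of sp7+ cells at 4 dpa did not enter the call, and it lay above whole fin in all 12 tiles lower in whole fin and below whole fin in all 10 tiles higher there. The whole fin values in this count are those that chose the tiles, so only the sp7+ level is separate from the choice. Over all tiles tested, whole fin was below both in 39.6%, above both in 32.3% and between them in 28.1%. Where whole fin was lower, the median level was 20.7% in whole fin, 69.6% in sp7- cells and 52.0% in sp7+ cells. Where it was higher, the medians were 75.9%, 36.1% and 48.0%.

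Most called tiles differed in the same direction in uninjured fin. The libraries of 0 dpa are separate from those of 4 dpa. The difference at 0 dpa had the same sign in 11 of 12 tiles lower in whole fin (median -29.3 points) and in 10 of 10 higher ones (median 24.6 points). Over all tiles tested with enough calls, 57.5% were lower and 42.2% higher in whole fin at 0 dpa, with a median of -0.84 points. The exception, chr17:2996000-2996499, had a difference of -39.3 points at 4 dpa and of 16.2 points at 0 dpa, where the whole fin replicates themselves were at 67.1% and 19.5%. A separate limma fit of the 4 libraries of 0 dpa called 326 of 1750620 tiles (0.0186%), and 6 of the 22 tiles were among them, all lower in whole fin. Among the 20 called tiles with 10 calls in all 16 libraries, the 8 whole fin and the 8 sorted libraries did not overlap in 11, against 0.309% of 1549223 such tiles. Of these 16 libraries 4 had made the call.

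The size of the difference between whole fin and sp7- cells was set directly against that at 0 dpa in a fit of 8 libraries. The interaction passed the threshold in 1 of 1648495 tiles (6.07e-05%), and 79056 tiles reached an unadjusted p below 0.05, fewer than the 82425 expected from p-values alone. That tile was not among the 22 called tiles. The count was 0 without either replicate of whole fin at 4 dpa (smallest limma adjusted p 0.0767 and 0.0963, with 83662 and 80531 tiles at an unadjusted p below 0.05), 2 once replicate 1 of sp7- cells at 4 dpa was left out, and 21 once replicate 2 of uninjured whole fin was left out. Across 1698603 tiles the differences at 4 and 0 dpa had a Pearson r of 0.177. This is across tiles, which share their libraries and are not independent replicates.

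A wider list, chosen after these values were seen, described differing tiles below the adjusted threshold. It took tiles with an unadjusted limma p below 0.001 and a difference above 25 points, which 1673 tiles met (0.0972%), 883 lower and 790 higher in whole fin. At p below 0.001 alone there were 3377 tiles, where 1722 would be reached by p-values without any difference, so part of the list is of that kind. Its tiles were shallow, with a median of 0.748 times the median coverage, and had a median of 9 CpGs, like all tiles. In contrast to the called tiles, 2.87% had over 3 times the median coverage.

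The wider list was confined neither to a class of CpG number nor to a chromosome. Its share of tiles was 0.0662% to 0.107% over the 6 classes of CpGs per tile, and 0.0630% (chromosome 2) to 0.139% (chromosome 7) over the chromosomes. Chromosome 7 held 87 tiles lower and 44 higher in whole fin, while chromosome 9 held 29 lower and 51 higher. By level at 0 dpa the share was 0.0272% in tiles below 10%, 0.366% at 10 to 25%, 0.489% at 25 to 50%, 0.224% at 50 to 75%, 0.0445% at 75 to 90% and 0.00758% above. The SD of the difference was likewise highest at 25 to 50%, at 10.7 points against 3.29 and 4.54 points in the lowest and highest classes. A limit of 25 points leaves less room in the extreme classes, so these shares are in part fixed by the choice.

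In the uninjured libraries the wider list kept its direction in most tiles. Of 866 tiles lower in whole fin with enough calls at 0 dpa, 679 (78.4%) were lower there too, and of 775 higher tiles 570 (73.5%) were higher. Over all tiles tested these shares were 57.5% and 42.2%. The median difference at 0 dpa was -8.48 points for the lower and 6.32 points for the higher tiles, against -32.1 and 30.9 points at 4 dpa, where the tiles were chosen.

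**Figure D4:**
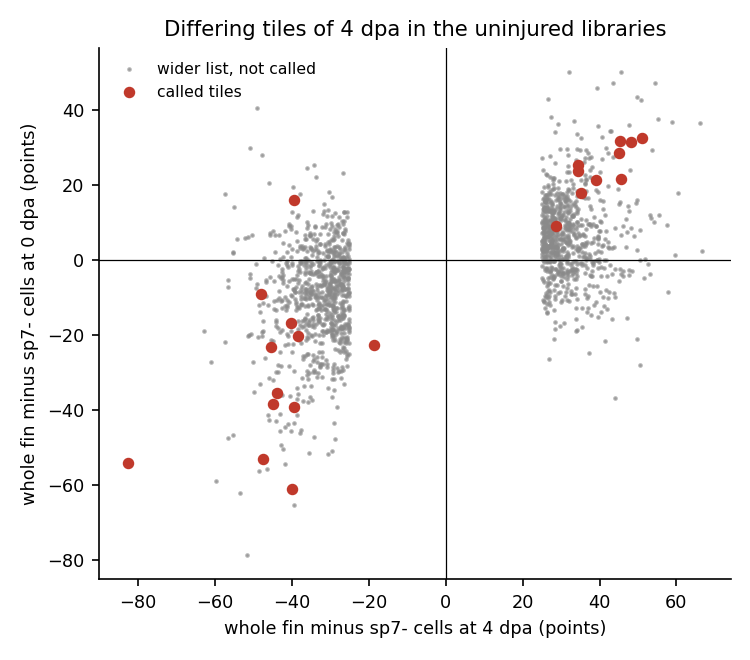
Difference of pooled levels, whole fin minus sp7- cells, at 4 dpa (horizontal, points) and at 0 dpa (vertical, points) for the tiles of the wider list (grey) and the 22 called tiles (red), each point a tile; the list has a lower limit of 25 points at 4 dpa. Of the called tiles, 11 of 12 on the left lie below 0 and 10 of 10 on the right above 0 on the vertical axis.

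The tiles of the wider list were chosen by their levels in whole fin and sp7- cells at 4 dpa. The distance of these groups from other libraries and the closeness of their replicates are thus in part fixed by the choice. The mean level of the 883 lower tiles was 38.9% in both libraries of whole fin at 4 dpa. It was 56.1% and 53.6% in uninjured whole fin, 56.0% and 56.8% on day 1 and 55.9% and 57.0% on day 2. It was 73.4% and 72.1% in sp7- cells at 4 dpa, 65.7% and 64.9% in those of 0 dpa, and 63.6% and 62.7% in sp7+ cells at 4 dpa. The 790 higher tiles were at 73.0% and 73.1% in whole fin at 4 dpa, 40.7% and 40.5% in sp7- cells and 53.4% and 53.5% in sp7+ cells. The sp7+ level lay beyond whole fin on the side of sp7- cells in 855 of 883 lower and 757 of 790 higher tiles. Over all tiles tested, whole fin was below both sorted populations in 39.6% and above both in 32.3%. The whole fin levels in this count are those that chose the tiles, so high counts are in part fixed by the choice.

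Tiles of the wider list were picked for a large difference and their neighbours were not, so a smaller difference in the neighbours is in part fixed by the choice. Tiles next to those of the wider list, 500 bp away, had a median difference of -2.93 and -3.14 points on either side of lower tiles and 2.34 and 2.08 points beside higher tiles. At 1000 bp it was -1.10 and -0.14 points beside lower tiles and -0.44 and -0.39 points beside higher ones. Around the 12 called tiles that were lower, the median was -8.52 points (5 tiles with enough calls) and -21.2 points (6 tiles) in the neighbours at 500 bp before and after. Around the 10 that were higher it was 7.83 points (7 tiles) before and 37.0 points (5 tiles) after, the latter close to the 42.0 points of the called tiles themselves. Some of these neighbours are called tiles too.

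Differing tiles were densest in a stretch of chromosome 21. Of 1353 windows of 1000000 bp, 895 held a tile of the wider list and 28 held 5 or more. The window chr21:40000000-40999999 held 12 of its 1279 tiles, 8 lower and 4 higher, and 4 of the 22 called tiles. Of these called tiles, chr21:40961000-40961499, its neighbour chr21:40961500-40961999 and chr21:40742000-40742499 had 7.29, 4.85 and 3.45 times the median coverage. The remaining called tile, chr21:40606500-40606999, had 0.844 times. The part of coverage in this density was not tested. The tile chr21:40961500-40961999 (26 CpGs) was at 90.6% and 74.2% in whole fin and 35.5% and 43.7% in sp7- cells, and chr21:40742000-40742499 (14 CpGs) at 6.76% and 19.9% against 51.4% and 49.3%. At 0 dpa the 12 tiles differed in the direction of 4 dpa by a median of 27.1 points. Next came chr6:12000000-12999999 and chr24:41000000-41999999 with 9 tiles each, all lower in whole fin, none of them called, and with medians of 5.08 and 14.4 points at 0 dpa in the direction of 4 dpa.

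Of the tiles that marked osteoblasts in uninjured fin, those lower in sp7+ cells placed whole fin near sp7- cells. A limma fit of sp7+ against sp7- cells at 0 dpa gave 7326 of 1704948 tiles (0.43%) that were lower by more than 25 points in sp7+ cells and 1137 (0.0667%) that were higher. The libraries of 4 dpa had no part in this choice. Over the 7326 tiles the mean level at 4 dpa was 62.7% and 61.8% in whole fin, 64.7% and 66.7% in sp7- cells and 41.5% and 41.8% in sp7+ cells. At 0 dpa, where the tiles were chosen, sp7- cells were at 63.2% and 62.4% and sp7+ cells at 27.1% and 28.1%. The wider distance at 0 dpa is in part fixed by the choice. Whole fin lay below both sp7- libraries and far above both sp7+ libraries. On a line from sp7- (0%) to sp7+ cells (100%) the mean of whole fin was at 14.4%, with 12.5% and 16.2% for its single libraries. The position was 17.9% without replicate 1 and 10.5% without replicate 2 of sp7- cells.

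The 1137 tiles higher in sp7+ cells gave a less even value. Whole fin was at 54.4% and 55.4%, sp7- cells were at 52.8% and 46.1% and sp7+ cells at 63.5% and 62.1%, so the sp7- replicates lay further apart than whole fin lay from the nearer of them. The position of whole fin was 40.9%, and it was 52.8% without replicate 1 and 21.2% without replicate 2 of sp7- cells. In these tiles whole fin was at 60.5% and 59.4% at 0 dpa and at 66.7% and 67.3% on day 1. At 0 dpa, where the tiles were chosen, sp7- cells were at 49.1% and 49.8% and sp7+ cells at 78.6% and 78.4%. Whole fin thus lay between both sorted populations in the mean of either set of tiles that marked osteoblasts. These tiles were chosen by a distance between the sorted populations, and the called tiles by one between whole fin and sp7- cells. The position of whole fin in the 2 kinds of tiles is therefore not compared.

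**Figure D5:**
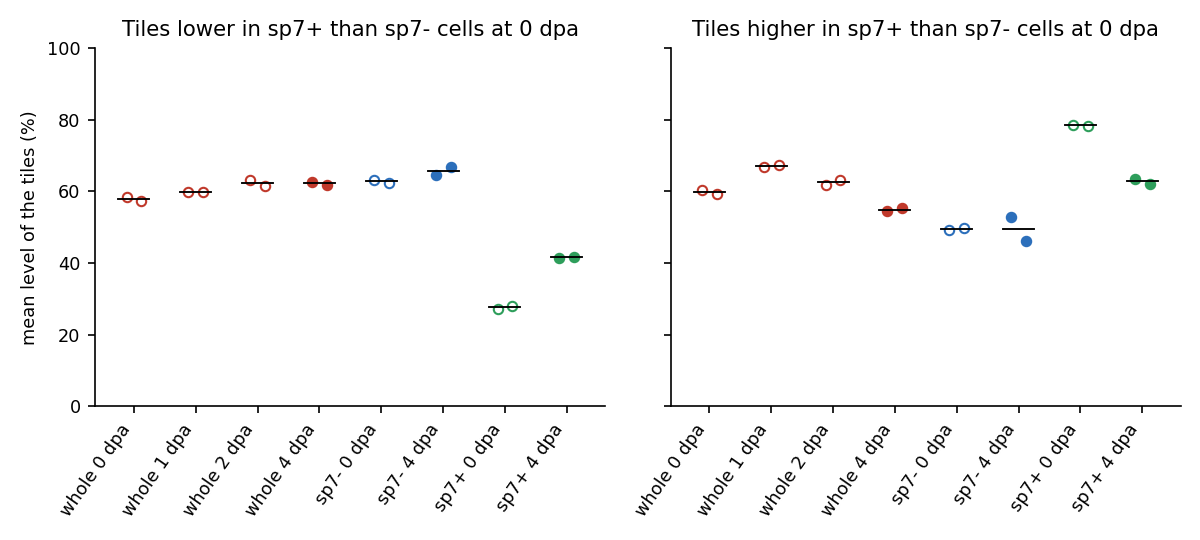
Mean methylation level (%) of the 7326 tiles lower (left) and the 1137 tiles higher (right) in sp7+ than in sp7- cells at 0 dpa, in each of the 16 libraries (points; filled at 4 dpa) with the group mean as a line. On the left whole fin at 4 dpa (62.7% and 61.8%) is just below sp7- cells, and on the right the sp7- replicates at 4 dpa spread from 46.1% to 52.8%.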

How the data were processed

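The deposited values were read counts made by the authors: for each CpG, reads covering the site on either strand, and how many of these were methylated. The authors trimmed reads with Trim Galore 0.4.1, mapped them with Bismark 0.16.1 and Bowtie2 to GRCz10 carrying the variants of the strain, and removed duplicates and CpGs disrupted by a variant.

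Counts were summed over tiles of 500 bp with 10 or more calls in each library compared. DSS, used by the study, was not installed. Levels on the arcsine scale, weighted by calls with a common overdispersion, were fitted per group with Python 3.11.15 and limma 3.58.1 variance shrinkage, with Benjamini-Hochberg adjustment over all tiles. The method was tested on simulated data. edgeR 4.0.16 was an alternative on the counts. Differences are those of pooled levels. Pooled levels needed 20 calls per group.

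Named tiles were the 5 called tiles in each direction with the largest difference, 30 or more calls in each of the 4 libraries, 5 or more CpGs, no overlap of libraries, at most 3 times the median coverage and at most 1 per 10000 bp. The comparison, tiles and lists were chosen with earlier results of these data known. Replicates are described at most as pools of fish, so p-values measure the spread between these libraries. Alternatives covered filters, tile size, scale, weights, depth, samples and left-out libraries.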

Additional observations from a re-analysis of the deposited data

Results flagged for a closer look

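The difference between whole fin and sp7- cells itself differed between 4 and 0 dpa at the tile chr6:42710000-42710499 (42 CpGs), by 91.2 points in the 8-library limma fit (adjusted p = 0.00866). Whole fin was at 90% and 67.4% at 4 dpa, on 10 and 46 calls, and at 0% in both libraries of 0 dpa, on 21 and 57 calls. The sp7- cells were at 41.9% and 64.4% at 4 dpa, on 186 and 73 calls, and at 66.1% and 78.0% at 0 dpa. The sp7+ replicates of 4 dpa lay far apart, at 32.5% on 329 calls and at 84.2% on 19 calls. In whole fin the tile was at 22.8% and 19.5% at 1 dpa and at 18.5% and 0% at 2 dpa. With 10 calls in a library, the tile was not tested where 20 calls were required in each.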

How the results depend on the processing

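The count of 22 called tiles became 0 without a filter on calls (smallest limma adjusted p 0.822), 0 on the log2 ratio scale (0.135) and 0 without weights (0.786), with 138593, 104082 and 108838 tiles at an unadjusted p below 0.05. It was 90 in a fit with sp7+ cells (including all 22), 113 in a fit of all 16 libraries (18 of the 22), 135 with edgeR and 13 without tiles of excess coverage. Leaving out single libraries gave 0 to 13 tiles, and 0 to 21 tiles for the interaction. The cause was not tested. The interaction count was also 0 where 20 calls were required, which left its tile out of the test (smallest limma adjusted p 0.158, with 62285 tiles at an unadjusted p below 0.05). Tiles of 1000 bp, other limits, centring, thinning to equal depth, the fit with the 0 dpa groups and the fit without chromosome 4 gave 20 to 28 tiles, but not always the 22: the 24 of the fit with the 0 dpa groups held 14 of them, the 26 after thinning held 20, and the 26 tiles of 1000 bp were 19 lower and 7 higher. Of 209 values of the 10 named tiles under 21 alternatives, 134 stayed past the threshold, 75 did not and 0 changed sign. Most alternatives kept the same pooled levels, and the choice of named tiles fixed the sign where single libraries were left out. The sign is thus no separate evidence. The named tiles also met the other limits on difference, calls and coverage by their choice, so those limits could not remove them. In the tiles lower in sp7+ cells the position of whole fin was 14.4%, and 10.5% to 17.9% with single libraries left out. In the tiles higher in sp7+ cells it was 40.9%, and 52.8% and 21.2% without replicate 1 and 2 of sp7- cells.

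The replicate differences of whole fin and of sp7- cells on the arcsine scale had a correlation of -0.00729 over tiles. Among the sorted libraries, however, replicate 1 exceeded replicate 2 in total calls and in genome-wide level in every group. The gap in level was smallest for sp7+ at 4 dpa (77.3% against 76.8%) and largest for sp7- at 4 dpa (78.5% against 76.1%). In whole fin the order of the replicates varied between time points. Whether sorted libraries with the same replicate number shared a batch was not tested. A fit with the replicate number as a block called 2136 tiles, 958 lower and 1178 higher, and the cause was not tested. With the same 4 libraries, such a fit leaves less to measure the spread of a tile than the main fit does.

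Limits: there were 2 libraries per group, so the spread of a tile rests mostly on that of all tiles, and a median of 49 calls in the shallowest library leaves small differences of single tiles undetectable.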
